A study of Mus musculus with 13 samples.

Results

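The 8 genes Hmgcs1, Idi1, Fdps, Fdft1, Sqle, Lss, Cyp51 and Dhcr7 encode enzymes of cholesterol synthesis, and were chosen by taking each probe set that the platform annotation gives 1 of these symbols. They are 8 of 18193 genes on the array and have 21 probe sets. RNA was measured on 1 array per sample in 13 mouse samples, each from a different mouse and none treated. The samples were 6 primary medulloblastomas from Ptch1(+/-) mice (Ptch1 MB), 3 wild-type samples of granule neuron precursor cells of the cerebellum at postnatal day 7 (P7 GNPC), and 4 wild-type samples of dorsal brainstem of embryos, E16.5 (E16.5 DBS). A Ctnnb1 tumour group named in the series was not analysed here. Ptch1 was inactivated in the mouse line, and the labels do not state the tumours' remaining Ptch1 allele, the mice's sex, strain or tumour age, any batch, or how pure the GNPC samples were. The normal tissues also differ in age, so batch, age and tissue cannot be told apart.

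Cholesterol is made from acetyl-CoA through mevalonate, isoprenoid units, farnesyl diphosphate, squalene and lanosterol, which later enzymes turn into cholesterol. The transcription factor SREBP-2, encoded by Srebf2, raises the genes of this pathway when sterols in the endoplasmic reticulum run low, and it binds sterol regulatory elements beside sites for NF-Y and Sp1. Ptch1, the hedgehog receptor, holds Smo, the pathway's signal transducer, inactive, and cholesterol and some of its oxidised derivatives bind and activate Smo. In granule neuron precursors and in the tumours that arise from them, active Smo drives Gli1 and division. The data allow the question of how RNA of the enzymes stands in hedgehog-driven tumours next to normal hindbrain tissue.

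The labels were checked first. By the rule for calls given below, 36.3% of all genes were called between tumours and DBS. The shares were 18.4% between GNPC and DBS and 20.8% between tumours and GNPC. Of 8 markers of granule neuron precursors, 6 were higher in tumours than in DBS and 6 were higher in GNPC than in DBS. Between tumours and GNPC, 1 was higher in tumours and none lower. That marker, Atoh1, was at 6383.3 to 11733.4 in tumours, 825.7 to 1251.8 in GNPC and 56.1 to 166.5 in DBS. GNPC had the highest sums of oligodendrocyte markers (23742 to 44780) and astrocyte markers (68500 to 73104) of the 3 groups. Its values therefore need not be those of precursors alone. All 9 measured Hox genes of the posterior hindbrain were lower in tumours and in GNPC than in DBS, and were below the array median in all GNPC samples, as were 8 of them in all tumours. The exception, Hoxa2, was at 827 in the first tumour, above the 387 to 544.5 of DBS, against 2.4 to 24.6 in the other tumours. That tumour also stood apart in RNA quality. Its log2 ratio of 3′ to 5′ control probe sets was 1.59, against 1.33 to 1.39 in the others. Without that tumour, 4 of the 8 enzymes were called against GNPC and 6 against DBS, as with it. The shares of all genes called without it were 20.9% and 36.6%. Ptch1 itself had a lowest, median and highest intensity of 3454, 7631 and 11575 in tumours, against 5563, 6309 and 6972 in GNPC and 5569, 5890, 5916 and 6134 in DBS. The groups overlapped for Ptch1 and it was not called in either tumour comparison (adjusted p = 0.509 and 0.257). Where its probe set lies relative to the inactivated part is not given in the sources used here, so its level checks nothing about the genotype. No value in the table was 0, and array medians lay between 91.3 and 117.5.

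RNA of all 8 enzymes was lowest on average in the tumours, intermediate in GNPC and highest in DBS. A gene was called at an adjusted p under 0.05 (limma, Benjamini-Hochberg over 12270 genes) with a difference of at least 2-fold on the log2(intensity + 18) scale, on which folds of dim genes are understated. Between tumours and GNPC, 4 of 8 enzymes were called, all lower in tumours: Hmgcs1, Sqle, Lss and Cyp51. Of all genes tested, 20.8% were called in that comparison and 14.2% were called lower. Between tumours and DBS, 6 of 8 were called, all lower in tumours, with Fdps and Fdft1 joining those 4, against 36.3% of all genes called and 20.9% called lower. Between GNPC and DBS, 0 of 8 were called, against 18.4% of all genes and 9.68% lower, although 6 of 8 passed the adjusted p without the 2-fold minimum, against 44.1% of all genes, and 7 had an unadjusted p under 0.05. In that comparison 1 of 8, Fdps, passed with other scalings, with a pseudocount of 1 and in 3 of the fits that leave out a sample.

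The median difference of the 8 enzymes was -0.94 on the log2 scale for tumours minus GNPC, -1.43 for tumours minus DBS and -0.63 for GNPC minus DBS. Over all genes tested these medians were -0.03, 0.00 and 0.04. Without the size minimum, 6 and 8 enzymes passed in the tumour comparisons, against 49.4% and 70.4% of all genes. Values of tumours and GNPC did not overlap for 6 of 8 enzymes, against 44.9% of all genes, and those of tumours and DBS for 8 of 8, against 56.1%. Both tumour comparisons use the same 6 tumours, and each normal tissue enters 2 of the 3 comparisons, so the 3 sets of values are not independent. Scaling the arrays to a common median raised the all-gene median by 0.23 and 0.12 in the tumour comparisons. Under it, 2 enzymes, Hmgcs1 and Cyp51, were called against GNPC, where 21.9% of all genes were called, so that this count is near the background share. All 8 differences were negative under it in both tumour comparisons.

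**Figure D1:**
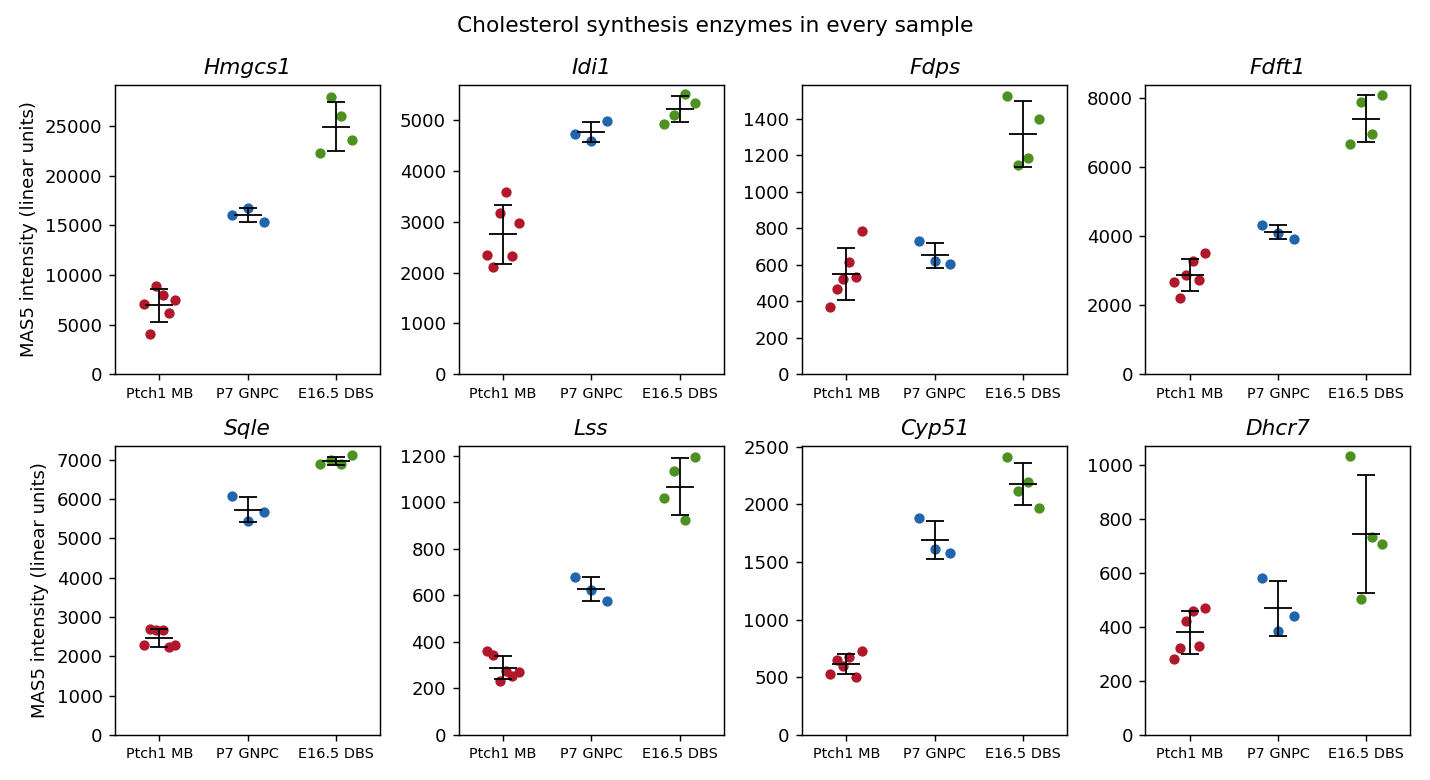
Intensity (linear units, axes from 0) of each enzyme in each Ptch1 MB, P7 GNPC and E16.5 DBS sample, with points for samples and bars for mean and SD (n = 6, 3 and 4). The tumours lie below all normal samples for Hmgcs1, Idi1, Fdft1, Sqle, Lss and Cyp51, while Fdps and Dhcr7 overlap with GNPC.

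Promoters are shown for the enzymes that were called against both normal tissues and matched an entry of the RefSeq promoter table (GRCm38.p6). Of the 8 genes, 5 matched: Hmgcs1, Idi1, Lss, Cyp51 and Dhcr7. Sqle, Fdps and Fdft1 are named only. Each sequence is the 250 bases before the annotated start, 5′ to 3′ on the strand of the gene, on chr13:119690101-119690350 (plus) for Hmgcs1, chr10:76531355-76531604 (plus) for Lss and chr5:4104698-4104947 (minus) for Cyp51. Capitals mark matches on either strand to TCACNCCAC, a sterol regulatory element, to CCAAT, bound by NF-Y, and to GGGCGG, bound by Sp1.
Hmgcs1: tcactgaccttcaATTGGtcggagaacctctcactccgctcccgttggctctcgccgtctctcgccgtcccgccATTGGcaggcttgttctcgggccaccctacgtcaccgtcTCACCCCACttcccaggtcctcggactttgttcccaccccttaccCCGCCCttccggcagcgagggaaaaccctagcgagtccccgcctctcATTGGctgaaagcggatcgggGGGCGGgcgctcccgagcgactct
Lss: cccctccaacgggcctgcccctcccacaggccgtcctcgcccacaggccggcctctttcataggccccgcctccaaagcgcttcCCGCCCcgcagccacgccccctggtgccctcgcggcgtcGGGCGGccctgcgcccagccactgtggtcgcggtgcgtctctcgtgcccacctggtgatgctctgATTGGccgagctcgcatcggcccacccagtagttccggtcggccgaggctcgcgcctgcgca
Cyp51: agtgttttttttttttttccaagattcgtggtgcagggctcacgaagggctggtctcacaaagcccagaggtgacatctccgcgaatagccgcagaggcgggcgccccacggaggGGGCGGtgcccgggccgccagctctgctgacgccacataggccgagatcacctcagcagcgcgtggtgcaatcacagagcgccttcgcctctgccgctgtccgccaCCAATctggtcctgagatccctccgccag
The Hmgcs1 window holds TCACCCCAC from -137 to -129, counted from -1 at the base before the start, with 3 NF-Y and 2 Sp1 matches. The Lss window holds 1 NF-Y and 2 Sp1 matches, and the Cyp51 window 1 of each, with no match to TCACNCCAC in either. Of 32851 windows of this length in the table, 1.053% hold TCACNCCAC, 33.85% hold CCAAT and 32.74% hold GGGCGG. The NF-Y and Sp1 letters are therefore common in promoters, and a match is a description of these letters only. The Idi1 window, with a smaller difference in RNA, holds 2 NF-Y matches and 1 Sp1 match.

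Hmgcs1, which makes HMG-CoA at the entry of the pathway, had a lowest, median and highest intensity of 4037, 7287 and 8848 in tumours, against 15298, 16040.4 and 16764 in GNPC and 22312, 23612, 26022.5 and 27978 in DBS. The 3 groups did not overlap. Its level was 2.38-fold lower in tumours than in GNPC (log2 difference -1.25 ± 0.18, SE; adjusted p = 6.76e-05) and 3.69-fold lower than in DBS (-1.88 ± 0.17; adjusted p = 1.14e-07). Between GNPC and DBS the difference was -0.63 ± 0.20 (adjusted p = 0.0168), short of 2-fold.

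Idi1 interconverts the 5-carbon isoprenoid units isopentenyl and dimethylallyl diphosphate. It had 2113, 2665 and 3581 as lowest, median and highest in tumours, against 4587, 4725 and 4974 in GNPC and 4931, 5109.7, 5336 and 5521.5 in DBS. Every tumour was below every normal sample, and GNPC and DBS overlapped. The differences were -0.81 ± 0.14 against GNPC (adjusted p = 0.000349) and -0.94 ± 0.13 against DBS (adjusted p = 1.42e-05), both short of 2-fold. Their 95% intervals run from -1.12 to -0.50 and from -1.23 to -0.66.

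Fdps makes farnesyl diphosphate, from which sterols, dolichol, ubiquinone and lipid anchors of proteins are made. Its lowest, median and highest values in tumours were 367, 525 and 788, against 602, 623 and 731 in GNPC and 1148, 1186.5, 1401.5 and 1529 in DBS. Tumours overlapped GNPC and lay below DBS. It was not called against GNPC (-0.28 ± 0.19, 95% interval -0.68 to 0.13; adjusted p = 0.24) and was 2.41-fold lower than in DBS (-1.27 ± 0.17; adjusted p = 1.14e-05).

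Fdft1, squalene synthase, is the step that commits farnesyl diphosphate to sterols. Tumours had 2214, 2799.85 and 3494.5 as lowest, median and highest, against 3919.5, 4073 and 4323 in GNPC and 6675, 6943, 7877 and 8070.2 in DBS. The 3 groups did not overlap. It was 2.58-fold lower in tumours than in DBS (-1.37 ± 0.12; adjusted p = 7.61e-08), and its difference from GNPC of -0.53 ± 0.13 (adjusted p = 0.00331) was short of 2-fold.

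Sqle, squalene epoxidase, is a rate-limiting enzyme of the sterol branch. Its lowest, median and highest values were 2230, 2474 and 2690.4 in tumours, against 5448, 5678 and 6069 in GNPC and 6892, 6904, 6987 and 7116 in DBS. The tumours formed a narrow group well below all normal samples, and GNPC lay below DBS. Sqle was 2.32-fold lower in tumours than in GNPC (-1.21 ± 0.09; adjusted p = 3.31e-07) and 2.82-fold lower than in DBS (-1.495 ± 0.08; adjusted p = 8.2e-10).

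Lss, which closes oxidised squalene into lanosterol, had 233, 274 and 362 as lowest, median and highest in tumours, against 575, 624.5 and 678 in GNPC and 924, 1019, 1134 and 1196 in DBS. The 3 groups did not overlap. The level was 2.11-fold lower in tumours than in GNPC (-1.08 ± 0.15; adjusted p = 4.7e-05) and 3.55-fold lower than in DBS (-1.83 ± 0.14; adjusted p = 2.12e-08). The call against GNPC was lost in 4 alternatives, at differences of -0.75 to -0.97.

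Cyp51 removes the 14-alpha methyl group of lanosterol. Tumours had 499, 623 and 724.5 as lowest, median and highest, against 1579, 1616 and 1878.5 in GNPC and 1970.3, 2119, 2195.5 and 2413 in DBS. The 3 groups did not overlap. Of the 8 enzymes, Cyp51 had the largest fold against GNPC, 2.72-fold lower in tumours (-1.45 ± 0.13; adjusted p = 1.39e-06), and was 3.50-fold lower than in DBS (-1.81 ± 0.12; adjusted p = 5.89e-09).

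Dhcr7 reduces 7-dehydrocholesterol to cholesterol, at the end of the pathway. Its lowest, median and highest values were 282, 374 and 471 in tumours, against 384, 439.6 and 580.1 in GNPC and 503.5, 708, 732 and 1033 in DBS. Tumours overlapped GNPC, lay below all DBS samples, and DBS varied by 2.05-fold between its highest and lowest sample. The differences were -0.29 ± 0.22 against GNPC (95% interval -0.76 to 0.18; adjusted p = 0.288) and -0.92 ± 0.20 against DBS (-1.34 to -0.49; adjusted p = 0.000851), and neither was called. Without the second DBS sample, the difference from DBS was -1.08 and was called.

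Between the normal tissues, the enzymes were lower in GNPC than in DBS by less than the minimum. The differences were -0.99 ± 0.20 for Fdps (adjusted p = 0.00134), -0.84 ± 0.14 for Fdft1 (adjusted p = 0.000209) and -0.75 ± 0.16 for Lss (adjusted p = 0.00182). They were -0.63 ± 0.24 for Dhcr7 (adjusted p = 0.0444), -0.36 ± 0.14 for Cyp51 (adjusted p = 0.0511) and -0.28 ± 0.10 for Sqle (adjusted p = 0.0273), and for Idi1 -0.13 ± 0.16 (adjusted p = 0.517). Values of GNPC and DBS did not overlap for 6 of 8 enzymes, against 55.9% of all genes, with Idi1 and Dhcr7 overlapping. The other probe sets past the filter gave smaller differences for Fdft1 (-0.17, adjusted p = 0.472) and Lss (-0.20, adjusted p = 0.498).

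Several enzymes have more than 1 probe set, and 17 of the 21 exceeded the filter on low values, which asks for a value above the array's own median in at least 3 arrays. The other 4, 1 of Fdps, 2 of Fdft1 and 1 of Lss, were above the median in 0 arrays. Differences were negative for all 17 probe sets in both tumour comparisons, from -2.29 to -0.28 against GNPC and from -2.86 to -0.61 against DBS. Of the 17, 10 were called lower against GNPC and 13 against DBS, where 18.3% and 34.2% of the 25894 probe sets tested were called, 12.6% and 18.2% of them lower. In GNPC minus DBS, limma called 0 of 17, against 17.5% of all and 7.94% lower, although 11 had an unadjusted p under 0.05, and 16 of 17 differences were negative. Probe sets of 1 gene read the same RNA and are not replicates.

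The 5 probe sets of Hmgcs1 were all called lower in tumours against both tissues, at -2.29 to -1.14 against GNPC, and the 1 used for the gene was not the most extreme. The second probe set of Lss differed less, at -0.42 against GNPC (adjusted p = 0.116) and -0.61 against DBS. For Cyp51 the 3 probe sets gave -0.69, -1.07 and -1.45 against GNPC, and for Fdft1 the 2 past the filter gave -0.53 and -1.02. The direction was therefore shared by the probe sets, and the size was not.

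**Figure D2:**
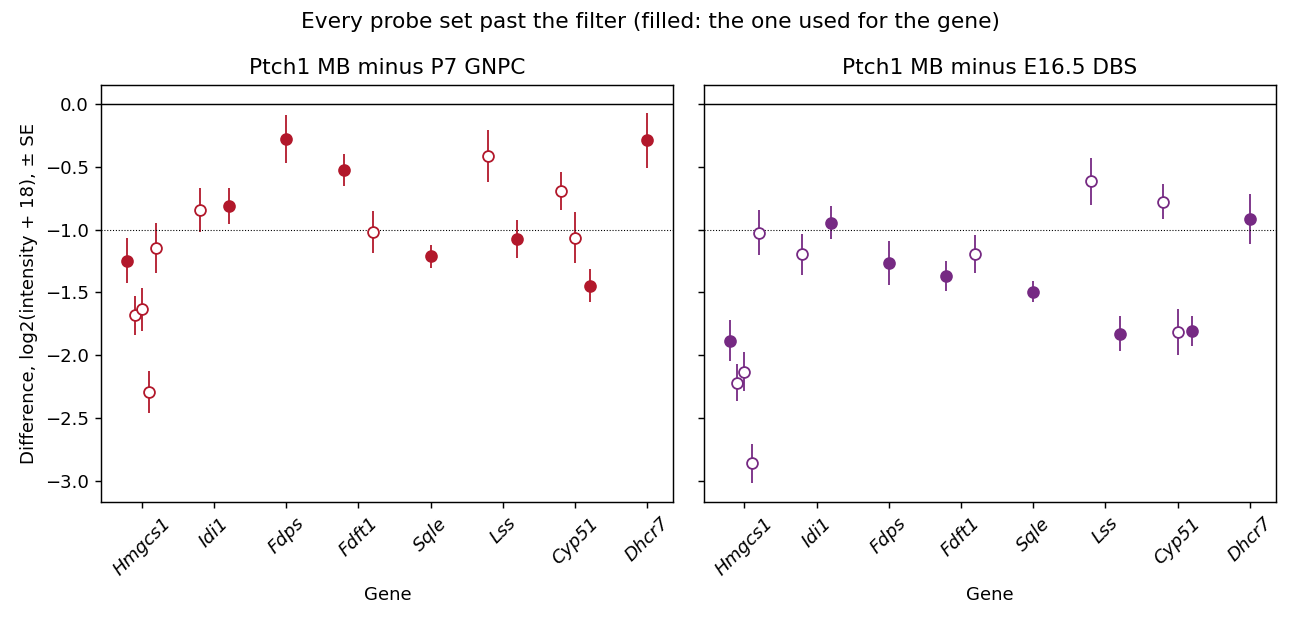
Difference on the log2(intensity + 18) scale, with SE, for each of the 17 probe sets past the filter, tumours minus GNPC on the left and tumours minus DBS on the right; filled points are the probe sets used for the genes. All points lie below 0, and the dotted line marks a 2-fold lower level in tumours.

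The other enzymes of the pathway were described from a list of 14, of which 11 were analysed here. Against GNPC, 6 of 11 were lower in tumours and 0 higher, with a median of -1.003, where 20.8% of all genes were called. Against DBS, 7 were lower and 1 higher, with a median of -1.04, where 36.3% of all genes were called. With median scaling, 3 were lower and 1 higher against GNPC, where 21.9% of all genes were called. With the mean of probe sets, 4 were lower against DBS, where 34.1% of all genes were called. Probe sets whose names end in _a_at, _s_at or _x_at are named suffixed probe sets here. Without them, 4 were lower against DBS, where 37.2% of all genes were called. Pmvk and Erg28 have only a suffixed probe set and were not measured in that setting. Between GNPC and DBS, 3 were higher in GNPC and 0 lower, where 18.4% of all genes were called. Over all 19 measured enzymes, 10 were lower in tumours than in GNPC and 13 lower than in DBS.

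In the mevalonate steps, Mvk, mevalonate kinase, averaged 259 ± 46.4 in tumours, 678 ± 41.4 in GNPC and 558 ± 137 in DBS (SD, n = 6, 3 and 4). It was 2.54-fold lower in tumours than in GNPC (adjusted p = 4.34e-05) and 2.06-fold lower than in DBS, a call that 6 alternatives removed at -0.88 to -0.96. Pmvk, phosphomevalonate kinase, was 2.62-fold lower than in GNPC (-1.39 ± 0.15; adjusted p = 6.46e-06) and 3.95-fold lower than in DBS. Mvd, which makes isopentenyl diphosphate, was 2.31-fold lower than in GNPC (adjusted p = 0.000655) and overlapped DBS (-0.27 ± 0.21; adjusted p = 0.266).

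The step after Cyp51 can be carried out by either of 2 sterol C14 reductases, and their levels differed from DBS in opposite directions. Tm7sf2 averaged 477 ± 128 in tumours, 1234 ± 73.3 in GNPC and 2332 ± 88.2 in DBS. It was 2.60-fold lower in tumours than in GNPC (-1.38 ± 0.19; adjusted p = 3.81e-05) and 4.89-fold lower than in DBS (adjusted p = 2.07e-08). Lbr, which is also a receptor of the inner nuclear membrane that binds lamin B, averaged 5919 ± 321 in tumours, 3108 ± 496 in GNPC and 852 ± 44.2 in DBS. It was 6.82-fold higher in tumours than in DBS (2.77 ± 0.09; adjusted p = 1.23e-11), and 1.91-fold higher than in GNPC (0.94 ± 0.10; adjusted p = 6.77e-06), just short of the minimum. No group of samples overlapped another for either gene.

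Of the enzymes that remove the C4 methyl groups, Nsdhl was 2.03-fold lower in tumours than in GNPC and 3.50-fold lower than in DBS. Msmo1 was 2.82-fold lower than in DBS (-1.496 ± 0.18, adjusted p = 2.54e-06) and -0.92 ± 0.19 against GNPC. Its other probe set, used when suffixed probe sets were left out, gave -0.23 against DBS. Hsd17b7 was 2.02-fold lower than in DBS and overlapped GNPC. Sc5d, a desaturase ahead of Dhcr7, was 3.86-fold lower than in DBS (-1.95 ± 0.16; adjusted p = 5.31e-08) and stood at the minimum against GNPC (-1.003 ± 0.17; adjusted p = 0.000292). The calls of Nsdhl and Sc5d against GNPC and of Hsd17b7 against DBS were each lost in several alternatives. Ebp, a sterol isomerase, and Erg28, a scaffold of the C4 demethylation enzymes, were not called in the tumour comparisons. For both, every tumour was below every GNPC sample. The differences from GNPC were -0.39 ± 0.15 for Ebp (adjusted p = 0.04) and -0.95 ± 0.19 for Erg28 (adjusted p = 0.00103). Ebp was nonetheless higher in tumours than in DBS in all samples (0.84 ± 0.13; adjusted p = 5.21e-05), short of 2-fold, and Erg28 differed by 0.47 ± 0.18 (adjusted p = 0.027), so that 3 of the 11 other enzymes had positive differences from DBS. In GNPC they were 2.35-fold (Ebp) and 2.68-fold (Erg28) higher than in DBS.

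**Figure D3:**
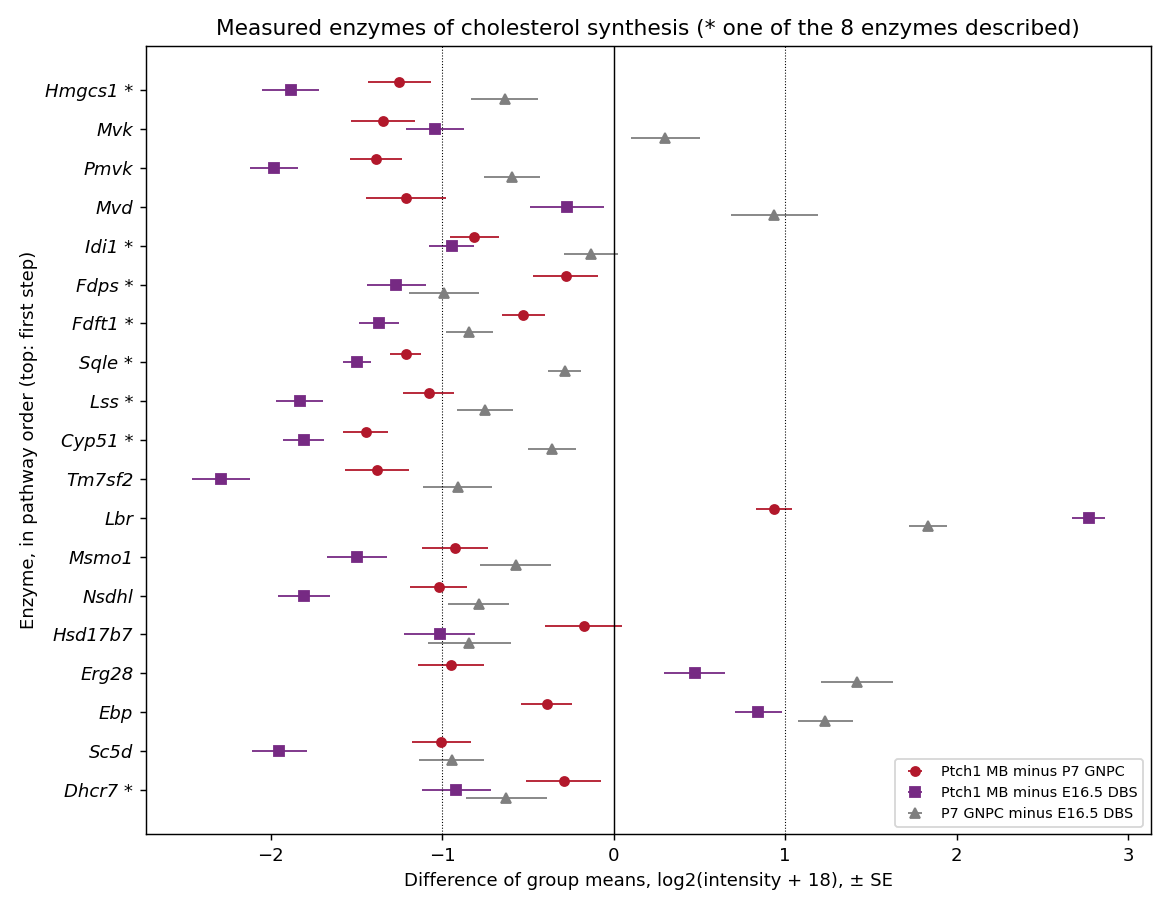
Difference of group means on the log2(intensity + 18) scale, with SE, for the 19 measured enzymes in pathway order from top to bottom, stars marking the 8 enzymes described. Red circles are tumours minus GNPC, purple squares tumours minus DBS and grey triangles GNPC minus DBS; most circles and squares lie left of 0, with Lbr to the right at 0.94 and 2.77.

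Genes that sense sterols were next. Srebf2 had a lowest, median and highest value of 137, 186.5 and 231 in tumours, against 382, 419 and 455 in GNPC and 269, 289.8, 328 and 337 in DBS. All tumours were below all normal samples. It was 2.19-fold lower than in GNPC (-1.13 ± 0.17; adjusted p = 0.000106), a call lost under 4 alternatives at -0.81 to -0.97, and was -0.70 ± 0.16 against DBS (adjusted p = 0.00114), short of 2-fold.

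Srebf1, which encodes SREBP-1a and SREBP-1c, ran the other way. Its lowest, median and highest values were 4890.5, 7178 and 9284 in tumours, against 1064.5, 1645 and 1653 in GNPC and 1021, 1075, 1090.4 and 1241 in DBS. All tumours were above all normal samples, by 4.85-fold on average against GNPC (2.28 ± 0.19; adjusted p = 7.06e-07) and 6.24-fold against DBS (2.64 ± 0.17; adjusted p = 5.09e-09). Insig1, which retains the SREBP precursor in the endoplasmic reticulum and is itself an SREBP target, was not called, at -0.56 ± 0.14 against GNPC and 0.36 ± 0.13 against DBS.

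Of 11 measured sensing genes, 1 was higher and 1 lower in tumours than in GNPC, and 2 were higher and 1 lower than in DBS. These counts do not exceed the shares of all genes called, 20.8% against GNPC and 36.3% against DBS. The other calls against DBS, Mbtps1 at 1.03 and Erlin2 at -1.01, stood at the minimum and were lost in several alternatives. Mbtps1 is the protease that makes the first cut in SREBP, and Erlin2 is a membrane protein of the endoplasmic reticulum.

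Of 11 measured genes of sterol uptake, transport and efflux, 2 were lower and 0 higher in tumours in both comparisons. Of all genes, 20.8% were called against GNPC and 36.3% against DBS, so neither count exceeds the share over all genes. Against DBS, 1 was higher in 6 alternatives that keep the 2-fold minimum, and 3 were higher without it. Lrp8, a receptor for apolipoprotein E and reelin, averaged 262 ± 69.0 in tumours, 2014 ± 277 in GNPC and 2098 ± 45.3 in DBS, and was 7.39-fold lower in tumours than in GNPC (adjusted p = 1.22e-07) and 7.75-fold lower than in DBS. Abcg4, a sterol transporter of neurons and glia, was 3.27-fold and 5.95-fold lower, although with the mean of its probe sets the difference from GNPC was -0.68 and was not called.

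Of 6 measured enzymes that oxidise sterols, 5 hydroxylases and the dehydrogenase Hsd3b7, 2 were higher and 1 lower in tumours than in GNPC, and 3 were higher and 1 lower than in DBS. The shares of all genes called were 20.8% and 36.3%. Cyp11a1, which cleaves the side chain of cholesterol, ranged from 1261 over a median of 2794 to 7569.8 in tumours, against 964, 990.5 and 1190.3 in GNPC and 79.5, 103.7, 108.5 and 187 in DBS. Its tumour values varied by 6.00-fold, all above GNPC and DBS. It was 2.87-fold higher than in GNPC (adjusted p = 0.0135), a call lost without the first GNPC sample, and 23.0-fold higher than in DBS (adjusted p = 2.08e-07). Cyp39a1, an oxysterol 7-alpha-hydroxylase, was 3.34-fold and 11.9-fold higher. Its DBS values (72.6 to 106.1), and most of those of Cyp11a1, lay near or below the array medians of 91.3 to 117.5. The sizes therefore depend on the processing. In alternatives that leave out no single sample, the log2 difference from DBS was 3.66 to 4.72 for Cyp11a1 and 3.12 to 3.80 for Cyp39a1. Cyp46a1, the 24-hydroxylase of neurons, was 3.36-fold lower in tumours than in GNPC and 2.58-fold lower than in DBS.

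A further list holds genes that take mevalonate products to ubiquinone, dolichol and protein prenylation, together with Acat1, a mitochondrial thiolase outside those branches. Of its 8 measured genes, limma called 0 in any of the 3 comparisons, with medians of 0.17 and 0.04 in the tumour comparisons. The shares of all genes called were 20.8% and 36.3% in the tumour comparisons and 18.4% in GNPC minus DBS. In each comparison 2 of the 8 had an unadjusted p under 0.05. Without the size minimum, 2 of the 8 were higher in tumours than in GNPC, and 1 higher and 1 lower than in DBS. Both counts lie below the share of all genes that passed, 49.4% and 70.4%. Of 11 fatty acid synthesis genes, 3 were lower in tumours than in GNPC and 4 lower than in DBS, and 0 were higher in either, with medians of -0.82 in both. The shares of all genes called were 20.8% and 36.3%. In 9 alternatives 1 of the 11 was higher in tumours than in DBS. Scd1, a stearoyl-CoA desaturase, was lower against both, by 4.69-fold and 3.81-fold. Fads2 and Fads1, desaturases of polyunsaturated fatty acids, were lower by 2.06-fold against GNPC (Fads2) and by 2.14-fold against DBS (Fads1).

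**Figure D4:**
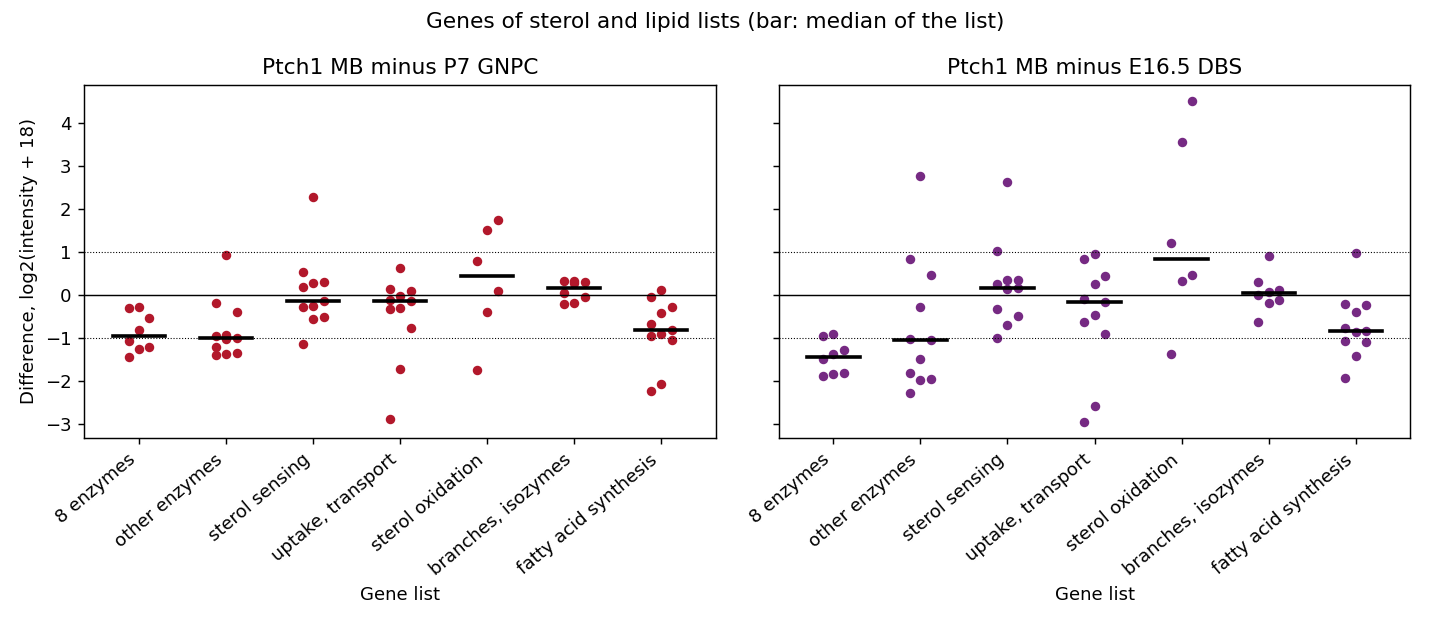
Difference on the log2(intensity + 18) scale for each measured gene of 7 lists of sterol and lipid genes, tumours minus GNPC on the left and tumours minus DBS on the right, with a bar at the median of the list. The 8 enzymes have medians of -0.94 and -1.43, and the list of mevalonate branches and isozymes 0.17 and 0.04; dotted lines mark 2-fold.

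The hedgehog pathway was set beside the enzymes because sterols act on Smo. Smo had a lowest, median and highest intensity of 1740.4, 2572 and 3298.5 in tumours, against 1147, 1151 and 1245 in GNPC and 445, 467, 570.1 and 620 in DBS. The 3 groups did not overlap, in the order opposite to the enzymes. Smo was 2.09-fold higher in tumours than in GNPC (1.07 ± 0.17; adjusted p = 0.000153), at 0.88 to 0.99 and not called in 3 alternatives, and 4.66-fold higher than in DBS (2.22 ± 0.16; adjusted p = 1.12e-08).

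Gli1, a direct target and effector of the pathway, had 705.5, 816 and 947 as lowest, median and highest in tumours, against 114, 123 and 131.5 in GNPC and 22, 26.3, 28.4 and 58.5 in DBS. The groups did not overlap. It was 5.94-fold higher in tumours than in GNPC (adjusted p = 3.32e-07). It was also higher than in DBS (log2 difference 4.06, adjusted p = 7.48e-11), but the DBS values all lie below the lowest array median, and the size depends on the pseudocount, at 4.66 with 1 and 3.19 with 64. Of 15 measured hedgehog genes, 8 were higher and 2 lower in tumours than in GNPC, and 10 were higher and 2 lower than in DBS. The shares of all genes called were 20.8% and 36.3%.

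Within the tumours, the enzymes were compared with Gli1 over 6 samples, by exact permutation of all 720 pairings, two-sided and adjusted over 12269 genes. Pearson's r with Gli1 ran from -0.55 for Lss (exact p = 0.285) to 0.43 for Sqle (exact p = 0.488), and Spearman's rho from -0.60 for Lss and Cyp51 (exact p = 0.242) to 0.43 for Hmgcs1 (exact p = 0.419). The adjusted p was 0.999 for each r and 1 for each rho. For Hmgcs1, Idi1, Fdps, Fdft1, Cyp51 and Dhcr7, r was 0.33, 0.25, -0.29, -0.16, -0.45 and -0.01 (exact p = 0.531, 0.667, 0.612, 0.792, 0.376 and 0.985). Their rho was 0.43, 0.31, -0.14, -0.03, -0.60 and -0.09, and that of Sqle was 0.03 (exact p = 0.419, 0.564, 0.803, 1, 0.242, 0.919 and 1). Without the tumours farthest from the median of Gli1, the third and sixth, r was 0.50, 0.48, 0.76, 0.67, -0.27, -0.98, -0.22 and 0.54 for Hmgcs1, Idi1, Fdps, Fdft1, Sqle, Lss, Cyp51 and Dhcr7, so that 4 of 8 changed sign. The smallest p that 720 pairings can give is 0.00139, so after adjustment over 12269 genes the design could hardly reach the threshold, and no statement for or against a relation follows. No r between single enzymes and Gli1 is given over all 13 samples, because the tissues form separate clusters.

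The enzymes did not rank the tumours alike. The second tumour was lowest for Hmgcs1, Idi1 and Fdft1, and highest for Sqle. The sixth was highest for Fdps, Fdft1, Cyp51 and Dhcr7, and the fourth was among the 2 highest for 6 of 8 enzymes. Deviations from the tumour mean ran from -0.74 for Hmgcs1 in the second tumour to 0.55 for Fdps in the sixth. The SD among tumours on the log2 scale ran from 0.13 for Sqle to 0.40 for Hmgcs1, against a median of 0.27 over all genes tested.

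**Figure D5:**
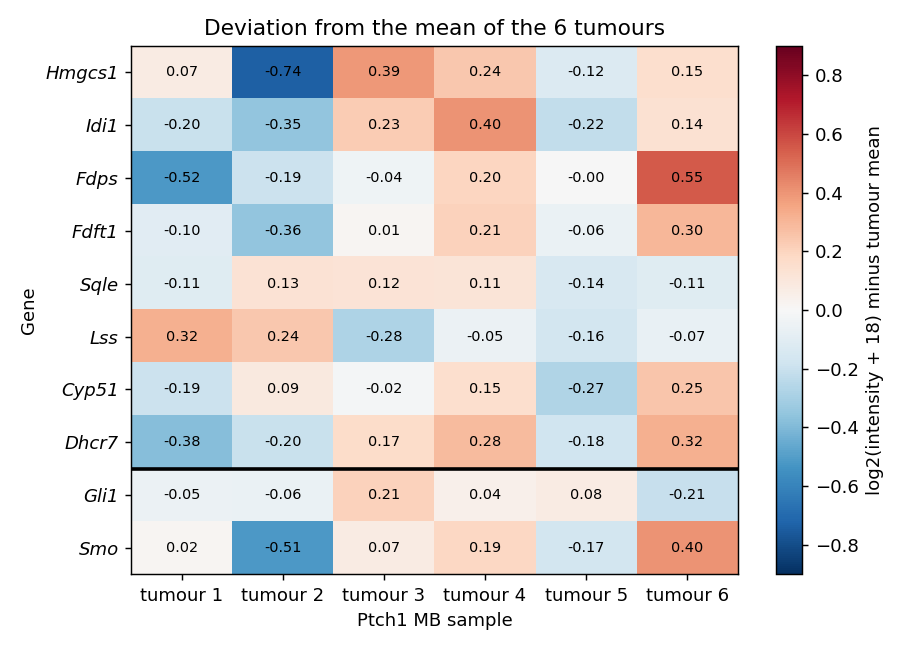
Deviation from the mean of the 6 tumours on the log2(intensity + 18) scale, for the 8 enzymes and, under the line, Gli1 and Smo, with red above and blue below the mean. The second tumour is at -0.74 for Hmgcs1 and -0.51 for Smo, and Gli1 stays within 0.21 of its mean.

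Over all 13 samples, the log2 values of each enzyme correlated with the mean of the other 7 at r between 0.82 (Dhcr7) and 0.96 (Cyp51), a description that mostly follows the order of the 3 tissues. The 5 genes whose levels were most like the mean of the standardised enzyme values, of 12262 ranked, were Hs3st4 (r = 0.99), Gpr12, Fgd5, Aldh5a1 and Noct (each r = 0.98). Hs3st4, a heparan sulfate sulfotransferase, averaged 16.4 ± 10.8 in tumours, 208 ± 88.0 in GNPC and 985 ± 70.7 in DBS. Of the other enzymes of the pathway, Nsdhl ranked highest (23rd of the ranking, r = 0.97), followed by Sc5d (r = 0.96) and Msmo1 (r = 0.95).

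Markers of other cell types differed between the groups as well. Beside the counts that follow, 20.8% of all genes were called between tumours and GNPC and 36.3% between tumours and DBS. Fewer cells of a type and less RNA per cell cannot be told apart in these bulk samples. Summed intensity of 12 neuron markers lay between 15057 and 39169 in tumours, against 74581 to 81125 in GNPC and 99214 to 109614 in DBS. The sums had the same order as the enzymes, but the single markers did not all share it. Of the 12, 9 were lower in tumours than in GNPC, and 10 lower and 1 higher than in DBS. Between GNPC and DBS, 3 were higher in GNPC and 5 lower. Nefh was below the array median in all tumours and Gabra6 in all DBS samples. For 12 astrocyte and Bergmann glia markers the sums were 22518 to 46358 in tumours, 68500 to 73104 in GNPC and 61236 to 67313 in DBS, with 8 of 12 lower in tumours than in GNPC, and 5 lower and 3 higher than in DBS.

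Proliferation markers ran the other way, with 9 summed genes at 61464.5 to 78266 in tumours, 26481 to 35918 in GNPC and 5793 to 8610 in DBS; 7 of 9 were higher in tumours than in GNPC and 9 of 9 higher than in DBS. Tyms was below the array median in all DBS samples. For 11 oligodendrocyte markers, whose cells make much cholesterol for myelin, sums were 9829 to 20706 in tumours, 23742 to 44780 in GNPC and 11794 to 17448 in DBS. Of these, 7 were lower in tumours than in GNPC and 2 lower than in DBS, and Mog was below the array median in all DBS samples.

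Microglia markers (9 genes) summed to 7327 to 22388 in tumours, 5181 to 6336 in GNPC and 5036 to 5248 in DBS, with 7 of 9 higher in tumours in both comparisons. Endothelial markers (6 genes) summed to 1533 to 2939 in tumours, 4958.5 to 5529 in GNPC and 3708 to 4944 in DBS, with 3 and 2 lower in tumours. Markers of meninges and fibroblasts (7 genes) summed to 4049 to 9524 in tumours, 11276 to 12323 in GNPC and 7466 to 10249 in DBS, with 5 and 4 lower in tumours, and Col1a1 and Ogn below the array median in all tumours. The part of any of these cell types in the enzyme differences was not tested.

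RNA quality, as the log2 ratio of 3′ to 5′ control probe sets of Gapdh and beta-actin, was 1.39 ± 0.099 in tumours, 1.16 ± 0.045 in GNPC and 1.75 ± 0.50 in DBS (SD, n = 6, 3 and 4). It was higher in tumours than in GNPC by 0.23 (exact permutation, two-sided, p = 0.0119, adjusted over 3 comparisons 0.0357). The difference did not pass between tumours and DBS (-0.36; exact permutation p = 0.0952) or between GNPC and DBS (-0.59; exact permutation p = 0.0571). The second DBS sample had 2.43, against 1.23 to 1.70 in the other DBS samples. Its part in the enzyme differences was not tested. Leaving that sample out kept all 6 enzyme calls against DBS and added Dhcr7, where 35.7% of all genes were called.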

How the data were processed

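Total RNA of 13 mouse tissue samples was labelled by Affymetrix 2-cycle amplification from 100 ng, per the labels' protocols, and hybridised to 1 array each. The deposited values are linear intensities, and MAS5 is the tool named per the submitters' processing notes, which leave its role and version unstated. Computed here, the trimmed mean, leaving out 2% of values at either end, was 500 on average over the 13 arrays. The number of arrays limits the precision. Groups follow the labels' source names, and replicate numbers follow accession order.

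Controls aside, there were 45037 probe sets: 34945 have 1 symbol in the platform annotation, 932 several and 9160 none; 0 symbols needed an update. A probe set was kept where at least 3 of 13 arrays gave it a value above the median of that array, and each gene used the one with the highest mean, giving 12270 genes. A limma 3.58.1 model (R 4.3.3; eBayes with a trend over intensity; residual degrees of freedom 10, prior 4.47) was fitted to log2(intensity + 18), where 18 is the 20th percentile of all values. Probe sets (25894) were fitted likewise. The procedure was tested on simulated data. Exact permutations were used for RNA quality and for correlation with Gli1.

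The 8 enzymes and all gene lists were chosen with earlier results of these data known. Named genes are the enzymes, listed genes called in at least 1 comparison (up to 8 per list and comparison), Srebf2, Insig1, Gli1, Smo and Ptch1, and the 5 genes most like the enzymes over the samples. Promoters are RefSeq's, read with GRCm38.p6. Alternatives were the pseudocount, scaling, filter, choice of probe set, size minimum, intensity trend, samples in the fit, and leaving out each sample.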

Additional observations from a re-analysis of the deposited data

Results flagged for a closer look

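Tumours and DBS, but not GNPC, were tested for 1 sample far from the others, over 40 genes and the RNA quality measure. Of these 82 groups of samples, 3 stood out, where chance gives about 1 in 20. Of the 16 tumour and DBS groups of the 8 enzymes, 0 stood out. Mbtps1 had an intensity of 2983.7 in the sixth tumour, against 1983.3 to 2196.7 in the other tumours. Cyp7b1, an oxysterol 7-alpha-hydroxylase, had 728.8 in the third tumour, against 1207.2 to 1485.3 in the others. The log2 ratio of 3′ to 5′ control probe sets was 1.59 in the first tumour, against 1.33 to 1.39 in the others.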

How the results depend on the processing

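The 8 enzymes' differences were recomputed under 23 settings, of which 13 leave out a sample. All 448 values were below 0; 433 kept their side of the threshold, 5 lost the call and 10 gained it, and the causes were not tested. Against GNPC, median scaling gave 2 enzymes called (21.9% of all genes), leaving out any 1 sample gave 4, and other settings gave 3 to 6. The 6 came with no 2-fold minimum, where 49.4% of all genes were called. Against DBS, 6 to 8 were called, the 8 only with no 2-fold minimum, where 70.4% of all genes were called. Between GNPC and DBS, 1 was called with a pseudocount of 1, median scaling or quantile normalization (18.8%, 18.3% and 18.7% of all genes). With no 2-fold minimum 6 were called there (44.1% of all genes). Leaving out a sample gave 0 to 1 (1 without GNPC sample 1, DBS sample 2 or DBS sample 3). Without a filter on low values, 1 of the enzymes' probe sets was called between GNPC and DBS, against 0. Sqle lost its call against GNPC with median scaling (-0.97). Fdft1 gained one without suffixed probe sets (-1.02). Idi1 gained one against DBS with the mean of its probe sets (-1.07) and without the fourth tumour (-1.02).

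The RNA quality difference between tumours and GNPC was 0.17 with Gapdh alone (exact permutation, adjusted p = 0.386), and that between tumours and DBS was -0.51 with beta-actin alone (exact permutation, adjusted p = 0.0357). Pearson's r with Gli1 changed sign with median scaling for Fdps (0.20), Fdft1 (0.38) and Dhcr7 (0.37), and without the third and sixth tumours for Fdps (0.76), Fdft1 (0.67), Dhcr7 (0.54) and Sqle (-0.27).

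For the 32 other genes, tested after the data were seen, 1681 of 1780 values kept their side, 61 lost a call, 29 gained one and 9 changed sign, none of them called in the original setting. With median scaling these were Hsd17b7 (0.067) and Stard4 (0.12) between tumours and GNPC and Ptch1 (-0.028) between GNPC and DBS. With the mean of probe sets they were Stard4 (0.16) between tumours and GNPC and Msmo1 (0.064), Lrp8 (0.11) and Scd2 (0.055) between GNPC and DBS. Msmo1 was at 0.70 there without suffixed probe sets, and Lrp8 lay between -0.15 and 0.048 when 1 sample was left out, positive without the second GNPC sample. No paired analysis was possible because the samples are numbered in accession order, which pairs none of them. Array intensities carry no read depth, and the 3 and 4 normal samples limit what can be called.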

Other observations

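Among the genes of sterol transport and lipid synthesis not described above, Stard4, a cytosolic carrier of cholesterol, was 2.13-fold higher in GNPC than in DBS (1.09 ± 0.18, SE; adjusted p = 0.00021) and overlapped between tumours and GNPC. In tumours it was above all DBS samples (0.96 ± 0.15; adjusted p = 4.03e-05), short of 2-fold and past it in 5 alternatives, at up to 1.09. Thrsp, a regulator of fatty acid synthesis, averaged 403 ± 253 in tumours, 1537 ± 245 in GNPC and 169 ± 27.6 in DBS (SD, n = 6, 3 and 4). It was 4.20-fold lower in tumours than in GNPC (limma, adjusted p = 0.00031) and 8.33-fold higher in GNPC than in DBS (adjusted p = 2.62e-05). Tumours minus DBS was 0.99 on the log2 scale, with overlapping values, short of 2-fold and past it in 8 alternatives. Me1, malic enzyme, which supplies NADPH for lipid synthesis, was 2.67-fold lower in tumours than in DBS (-1.42 ± 0.25; adjusted p = 0.000122). Scd2, the stearoyl-CoA desaturase of brain, was 2.10-fold lower in tumours than in DBS (-1.07 ± 0.09; adjusted p = 9.77e-08) and -0.82 ± 0.10 against GNPC, short of 2-fold. Cyp7b1 was 2.32-fold higher in tumours than in DBS and overlapped GNPC.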
